A study of Rattus norvegicus with 9 samples.

Results

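Galanin is a neuropeptide cut from a precursor encoded by Gal, and it acts on neurons through the receptors encoded by Galr1, Galr2 and Galr3. The first and the last of these receptors couple mainly to inhibitory Gi/o proteins, which lower cyclic AMP and open inwardly rectifying potassium channels, while the GalR2 receptor also couples to Gq proteins and phospholipase C. In the brain galanin is made by noradrenergic, hypothalamic and some limbic neurons and takes part in feeding, arousal, stress and reproduction. Its gene is a textbook target of oestrogen in the anterior pituitary. The amygdala, which processes fear and social signals, holds galanin fibres, galanin receptors and oestrogen receptors.

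Expression of these 4 genes was examined in the amygdala of 9 female rats of the spontaneously hypertensive strain (SHR), which is inbred and develops high blood pressure. All 9 animals had both ovaries removed at 4 weeks of age and recovered for 1 week. The control group (OV, 4 rats) then carried an osmotic minipump with polyethylene glycol vehicle, and the treated group (OV+E2, 5 rats) a pump releasing 2 µg of estradiol a day. Tissue of both sides was taken at 9 weeks of age, and each rat gave RNA for 1 array, so that n counts rats. No rat with ovaries was part of the design, and each value is an average over all cells of the dissected tissue. Members were chosen by name: a probe belonged if the array named it Gal, Galr1, Galr2 or Galr3, which gave 4 probes, 1 for each gene, of 45598 probes and 19048 named genes on the array. These genes were proposed with the estradiol difference of this same experiment known. Their own differences are therefore given as a description with no test.

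The 4 probes are 60-base oligonucleotides, and the first 30 bases of each are printed because every level below rests on this single oligonucleotide per gene.
Gal: agtcattctaggctaaaaagaatcttccgc
Galr1: ttattccctggggcaattaatttagaatta
Galr2: ctgcacagcctcgagtagaaccctggatcc
Galr3: ctagactaaccctgtcccccaggggacctc
On rat build rn4 the Gal probe lies on the minus strand of chr1:205936430-205936489 and the Galr1 probe on the minus strand of chr18:78858892-78858951. The Galr2 probe lies on the plus strand of chr10:106396112-106396171 and the Galr3 probe on the plus strand of chr7:117016999-117017058. G and C made up 43.3% of the Gal probe, 35.0% of the Galr1 probe, 53.3% of the Galr2 probe and 60.0% of the Galr3 probe. Whether a probe falls in a coding or an untranslated stretch was not analysed here.

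Levels are log2 signals relative to the 75th percentile of the array, so that a level of 0 equals that percentile and negative levels lie below it. All 4 probes were well above background on 9 of 9 arrays, and none was saturated. The 75th percentile itself lay between 557 and 738 signal units on 8 arrays and was 129.7 on OV replicate 3. That array correlated at a mean of 0.932 with the others, against 0.981 to 0.984 for the other 8, so the difference of each galanin gene is also given without it, as is that of a partner gene that moved by more than 1.5 times. In the amygdala list, 8 of 10 markers were well above background on all 9 arrays, among them the glutamate transporter gene Slc17a7, and Tac2 matched no probe.

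Gal was higher in every estradiol-treated rat than in any control. In OV its level was 0.40 in replicate 1, 1.02 in replicate 2, 0.27 in replicate 3 and 0.67 in replicate 5. In OV+E2 it was 1.35, 1.16, 1.10, 1.37 and 1.36 in replicates 1 to 5. The control rats were spread widely, and the highest of them lay only 0.079 below the lowest treated rat. The means were 0.59 (SD 0.33, n = 4) in OV and 1.27 (SD 0.13, n = 5) in OV+E2, a log2 difference of 0.68 (SE 0.16) or 1.60-fold, against a pooled SD within groups of 0.24. Of all probes with complete values, 2.88% likewise lay higher in every OV+E2 rat than in any OV rat and 4.01% lower, or 5.01% and 5.42% when OV replicate 3 was left out. A difference of at least 1.5-fold upwards was seen in 3.44% of tested probes. As the gene was proposed from this contrast, nothing is read from these shares. A change in the number of galanin cells and a change in galanin RNA per cell cannot be told apart in bulk tissue.

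The Gal difference kept its direction in each processing and each subset of arrays tried. It was 0.57 without OV replicate 3, with the control mean at 0.70 (SD 0.31, n = 3). It was 0.82 without OV replicate 2, the control rat closest to the treated ones. Within slide 1 (OV replicates 1, 2 and 3 against OV+E2 replicates 1 and 2) it was 0.69, and within slide 2 (OV replicate 5 against OV+E2 replicates 3, 4 and 5) 0.60, with 0.66 when slide was a block. In the authors' processed table the signal of Gal was 869, 1328, 1301 and 1050 in OV replicates 1, 2, 3 and 5. The same table gave 1674, 1464, 1407, 1708 and 1685 in OV+E2 replicates 1 to 5, so the groups again did not overlap, as for 4.1% of probes in that table. The difference there was 0.50, and OV replicate 3, the lowest rat in the scanner file, was among the higher controls in that table. Without that rat the table gave 0.57. Weighting arrays by their quality in limma gave 0.39.

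**Figure D1:**
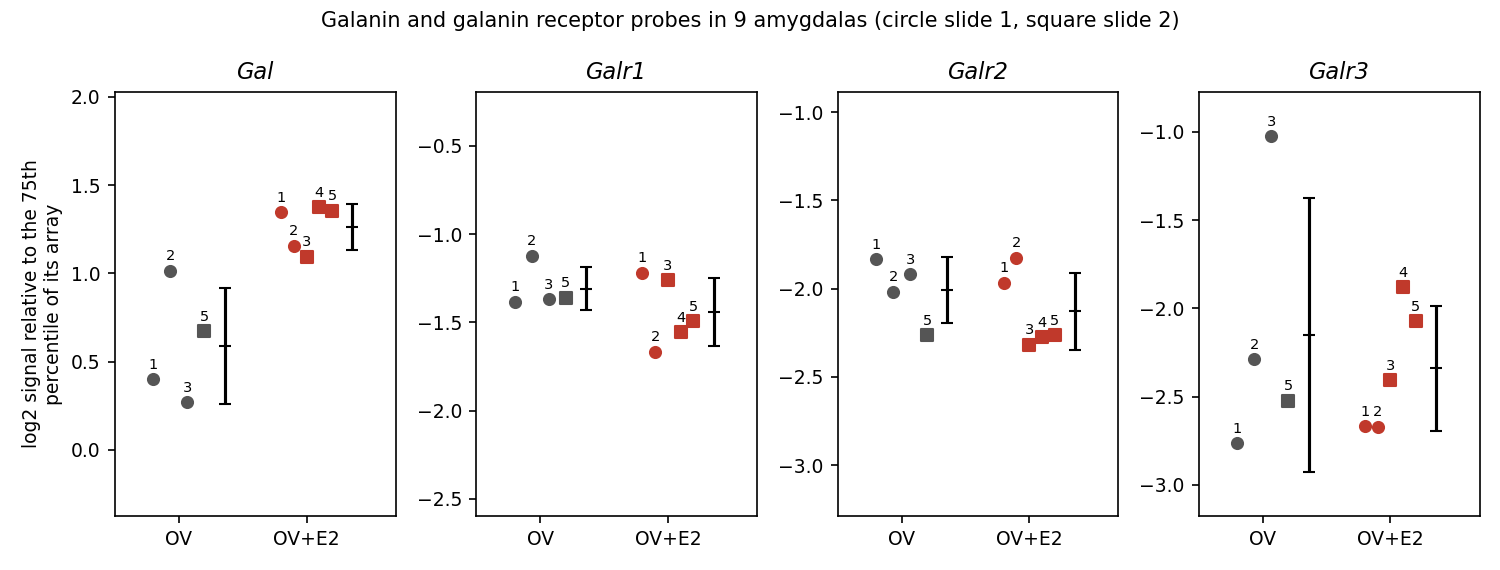
Log2 signal relative to the 75th percentile of each array (vertical axes, all spanning the same range) for the 4 genes in OV and OV+E2 rats. Points are rats numbered by replicate, circles stand for slide 1 and squares for slide 2, and the black marks are the group mean and SD. For Gal the 5 treated rats sit at 1.10 to 1.37, above the 4 controls at 0.27 to 1.02, while the groups overlap for each receptor.

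Galr1, the Gi/o-coupled receptor, overlapped between the groups, and the size of its difference varied with the processing. Its level was −1.38, −1.12, −1.37 and −1.36 in OV replicates 1, 2, 3 and 5. In OV+E2 replicates 1 to 5 it was −1.22, −1.67, −1.26, −1.56 and −1.49. The treated rats spanned the level of 3 of the controls, and OV replicate 2 was the highest of the 9. The difference was −0.13 (SE 0.12, n = 4 and 5), under the pooled SD of 0.17. It was −0.15 without OV replicate 3, −0.14 in the authors' values and −0.025 after median scaling. The sign was the same in each processing tried. The size went furthest with array weights (−0.26, SE 0.099) and after normexp background correction (−0.21, SE 0.11).

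Galr2, the receptor that also signals through Gq, differed between slides more than between groups. In OV replicates 1, 2, 3 and 5 it was −1.83, −2.02, −1.92 and −2.27. In OV+E2 replicates 1 to 5 it was −1.97, −1.82, −2.32, −2.28 and −2.26. The 5 arrays of slide 1 lay between −2.02 and −1.82 and the 4 arrays of slide 2 between −2.32 and −2.26, whichever group the rat belonged to. This split by slide, noticed after the values were seen, was shared by 3.29% of probes that were lower on every array of slide 2. The estradiol difference was −0.12 (SE 0.14, n = 4 and 5) over all arrays, −0.090 without OV replicate 3 and 0.0095 with slide as a block. Within slides it was 0.028 on slide 1 and −0.020 on slide 2. The authors' table showed the same division, with 162 to 186 signal units on slide 1 and 132 to 137 on slide 2.

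The direction of Galr3, the remaining Gi/o-coupled receptor, changed when a single array was left out, and it differed between the slides. Its level was −2.76, −2.29, −1.02 and −2.52 in OV replicates 1, 2, 3 and 5. In OV+E2 replicates 1 to 5 it was −2.67, −2.67, −2.41, −1.88 and −2.07. OV replicate 3 stood far above every other rat, and among the treated rats replicates 4 and 5, both on slide 2, were the highest. The difference was −0.19 (SE 0.35, n = 4 and 5) with all arrays and turned to 0.19 without OV replicate 3, where the control mean was −2.52 (SD 0.24, n = 3). It was also positive in the authors' values (0.22) and with array weights (0.13). Within slide 1, which holds OV replicate 3, it was −0.64 and within slide 2 it was 0.40. With slide as a block it was −0.24 over all arrays and 0.091 with OV replicate 3 left out. No direction held for this gene.

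The receptor probes were dim, which limits what a small difference can show. On the 8 arrays other than OV replicate 3 the processed signal of Gal ran from 921 to 1888 units, that of Galr1 from 196 to 292, that of Galr2 from 134 to 196 and that of Galr3 from 97.9 to 181. On OV replicate 3 they were 157, 50.2, 34.3 and 63.8. Signals of different probes are not set against each other as amounts of RNA. Across rats the receptors did not follow the peptide closely: over the 9 arrays Pearson's r with Gal was −0.16 for Galr1, −0.42 for Galr2 and −0.28 for Galr3. That of Galr3 was 0.57 when OV replicate 3 was left out. These coefficients describe 9 arrays that share scaling, slides and treatment, and they carry no test.

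**Figure D2:**
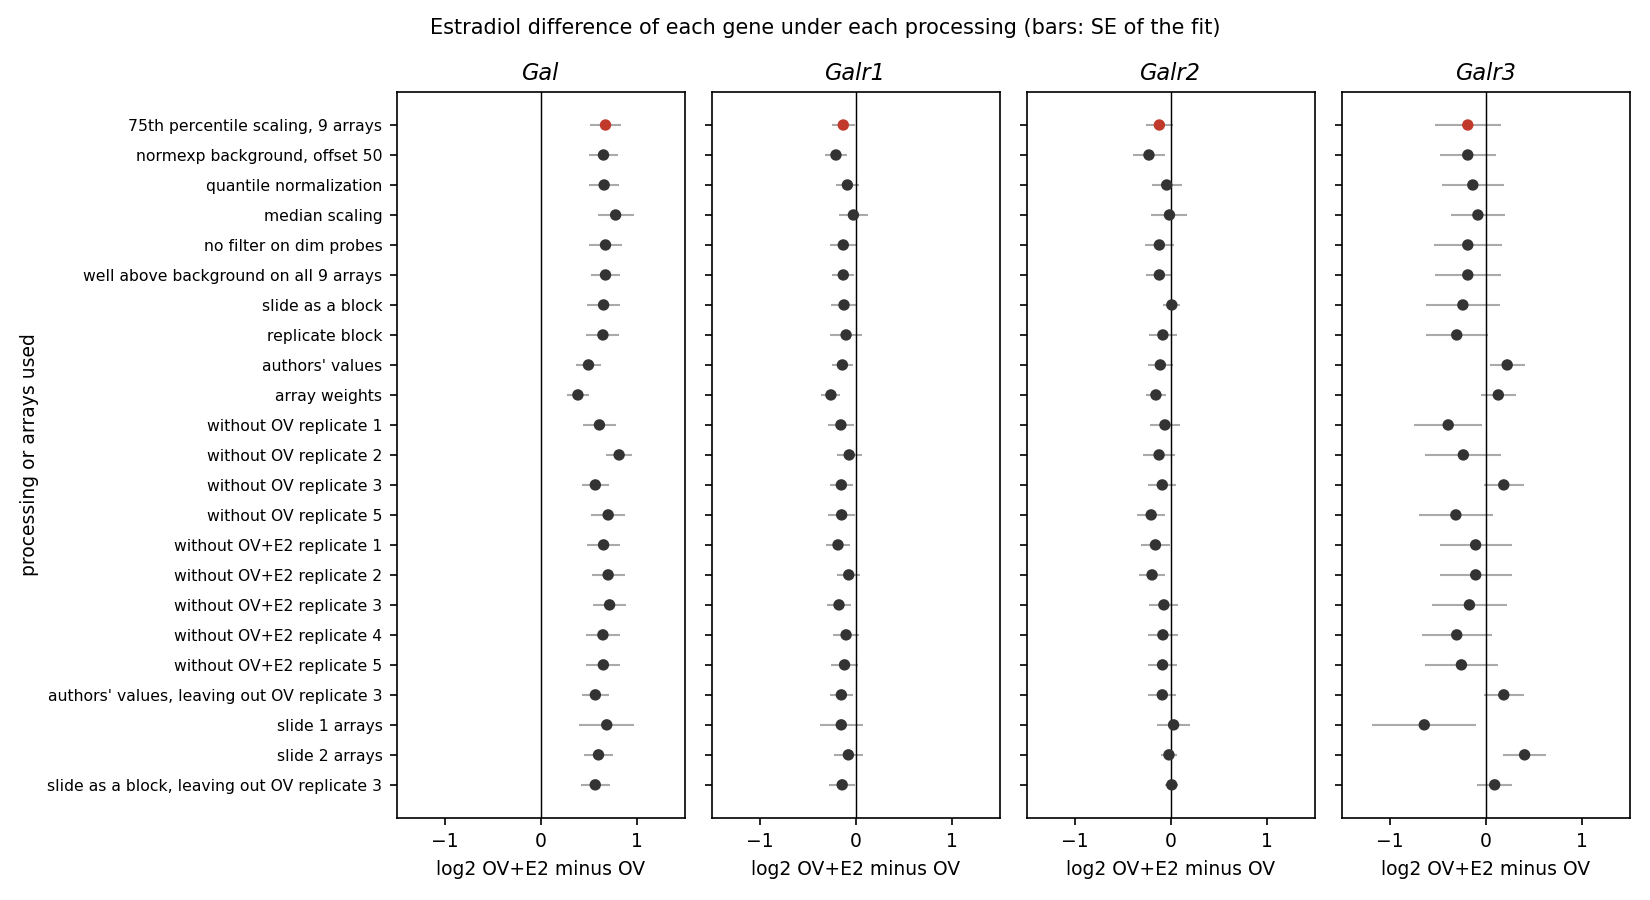
Log2 difference OV+E2 minus OV (horizontal axes) of each gene, 1 row for each processing or set of arrays, with bars for the SE of the fit. The red point is the value over all 9 arrays with 75th percentile scaling. Gal stays right of 0 throughout, between 0.39 and 0.82, and Galr1 left of 0. Galr2 lies between −0.23 and 0.028, and Galr3 between −0.64 and 0.40.

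The 250 bases before the RefSeq start of Gal (build GRCr8, chr1:210084573-210084822, minus strand) are printed because oestrogen receptors can bind DNA at inverted repeats of the half-site GGTCA, and Gal is the member whose groups did not overlap.
Gal promoter: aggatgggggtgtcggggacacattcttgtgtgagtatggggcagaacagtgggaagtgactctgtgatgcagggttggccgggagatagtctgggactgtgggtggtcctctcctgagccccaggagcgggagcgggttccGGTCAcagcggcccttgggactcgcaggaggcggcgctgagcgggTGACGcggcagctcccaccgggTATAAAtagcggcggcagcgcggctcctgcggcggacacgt
Capitals mark the half-site GGTCA, the letters TGACG that are part of the cyclic AMP response element TGACGTCA, and the TATA sequence TATAAA. Each was searched on both strands. In Gal 1 GGTCA began 108 bases before the start, 1 TGACG began 63 bases before it and TATAAA 41 bases before it, with no overlap between them. Windows of this length were available for all 4 genes and 33469 genes in all, of which 35.4% held GGTCA or its reverse, 18.2% TGACG and 12.9% TATAAA. The full oestrogen response element, which contains the half-site in both orientations, was in none of the 4 windows and in 0.0239% of all. The full cyclic AMP element was in none of the 4 and in 1.59% of all. Of the receptors, Galr2 held 1 GGTCA, 175 bases before its start, and Galr1 and Galr3 held none of the letters searched. A match is not a binding site, and no match says only that these letters are not in the window.

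The partners of galanin were read from the same fit over all probes, in which 0 of 30215 passed an adjusted p of 0.05 in limma. The unadjusted p was under 0.05 for 3134 probes (10.4%), with 3.2% higher and 7.17% lower in OV+E2. Over all lists 15 of 103 tested genes were under it. Of named genes, each taken at its brightest probe, 3.71% were higher in OV+E2 and 5.8% lower at that threshold, with a median difference of 0.027, and the lists below are read against these shares. In that fit no gene of the lists had an adjusted p under 0.05, so the values are given as differences with no verb of change. Weighting arrays by quality altered this: 3499 probes passed, among them 12 of the genes named below, with adjusted p between 0.0141 (Plcb3) and 0.0448 (Gna11) in limma. These 12 were Avp, Oxt, Pomc, Nkx2-1, Plcb3, Gna11, Slc17a7, Scg2, Socs3, Kcnj6, Kcnj3 and Greb1, each with the sign given below. The lists were drawn up with earlier results of these arrays known.

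Of the related ligands and receptors 2 of 4 genes could be tested. Spx encodes spexin, a peptide that activates GalR2 and GalR3 receptors, and its brighter probe was well above background on 8 of 9 arrays, with a difference of 0.30 (SE 0.26) and 0.071 without OV replicate 3. The kisspeptin receptor gene Kiss1r, a relative of the galanin receptors, was at 0.26 (SE 0.14) and 0.11 without that array. Galp, the galanin-like peptide gene, was well above background on 0 of 9 arrays and Kiss1 on 2. A probe described as a predicted further locus for galanin receptor type 2, looked up after the descriptions were read, was well above background on 3 of 9 arrays and was not tested.

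Of the enzymes and granule proteins that mature peptides such as galanin, 11 of 13 tested genes were above 0, beside 8167 of 14989 named genes, with a median of 0.20 (0.10 without OV replicate 3). At an unadjusted p under 0.05 2 were higher and 1 lower. Scg2, the granule protein secretogranin II, was at 0.28 (SE 0.10, adjusted p = 0.400 in limma). Cadps, which primes dense-core vesicles for release, was at 0.20 (SE 0.079), although the mean of its probes was −0.27. Scg3, a granule sorting protein, was at −0.34 (SE 0.13), and at −0.20 without OV replicate 3. The prohormone convertase gene Pcsk1 was at 0.26 (SE 0.14), with −0.40 as the mean of its probes.

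Genes for the effectors of galanin receptors went both ways. Of 17 Gi/o genes 1 was higher and 1 lower at an unadjusted p under 0.05, with a median of 0.13 (0.039 without OV replicate 3). The potassium channel subunit Kcnj6 was at 0.28 (SE 0.12), and at 0.12 after normexp. Kcnj9 was at 0.30 (SE 0.13), at 0.18 without OV replicate 3 and at −0.048 as the mean of its probes, while Kcnj3, which assembles with them, was at −0.41 (SE 0.19). The striatum-rich adenylyl cyclase gene Adcy5 was at −0.47 (SE 0.21), −0.27 without OV replicate 3, −0.67 within slide 1 and −0.027 within slide 2. Of 9 tested Gq genes 1 was higher and 1 lower, with a median of 0.18 (0.067 without that array). Plcb3, a phospholipase C driven by Gq, had the smallest p of them, with −0.91 (SE 0.22, adjusted p = 0.252 in limma), and it was −0.49 within slide 1 and −1.40 within slide 2. Gna11, a Gq-family subunit, was at 0.40 (SE 0.15), at 0.25 without OV replicate 3 and at 0.033 after normexp. Another phospholipase C gene, Plcb4, was at 0.52 (SE 0.30), with 1.06 within slide 1, 0.057 within slide 2, 0.29 without OV replicate 3 and −0.023 as the mean of its probes. The protein kinase C gene Prkca was at 0.18 (SE 0.10), and at 0.087 without OV replicate 3.

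Factors that raise galanin in injured neurons showed no common direction. Of 11 tested genes 1 was higher and 1 lower at an unadjusted p under 0.05, with a median of 0.045. Socs3, a feedback inhibitor of cytokine signalling through Stat3, was at 0.25 (SE 0.10), with −0.30 as the mean over its probes and 0.038 after normexp. Bdnf was at 0.71 (SE 0.43) but at 0.20 without OV replicate 3, and Stat3 at 0.11 (SE 0.076).

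Of 9 tested genes that mark galanin-containing neurons 6 were below 0, beside 6822 of 14989 named genes, with a median of −0.091, and the single gene at an unadjusted p under 0.05 was Vip, the vasoactive intestinal peptide gene (0.36, SE 0.13). The catecholamine enzyme gene Th was at −0.61 (SE 0.27), the dynorphin precursor gene Pdyn at −0.29 (SE 0.14) and Ghrh, the growth hormone-releasing hormone gene, at −0.17 (SE 0.12). Dbh, the noradrenaline enzyme gene, was well above background on 6 of 9 arrays, and Phox2a and Tph2 on 0. Oestrogen targets and receptors gave no gene at that threshold: Pgr was at 0.29 (SE 0.21), Greb1 at 0.18 (SE 0.14), Gper1 at −0.21 (SE 0.21) and Esr1 at −0.068 (SE 0.19). The oestrogen receptor gene Esr2 was well above background on 1 of 9 arrays and was not tested. Without OV replicate 3 Greb1 was at 0.32, Gper1 at 0.040 and Esr1 at −0.28, and normexp took Greb1 to 0.042 and Pgr to −0.091.

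**Figure D3:**
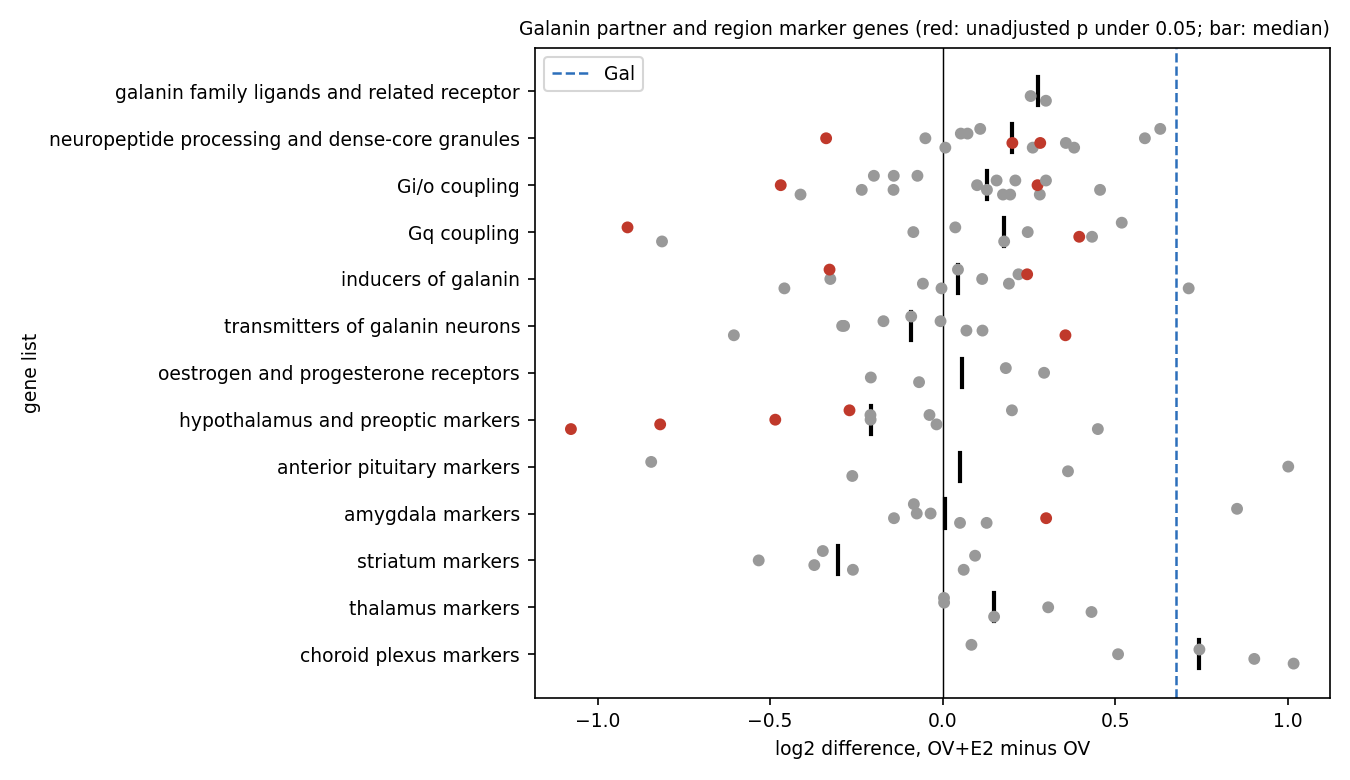
Log2 difference OV+E2 minus OV (horizontal axis) of each tested gene in the 13 lists (vertical axis). Red points have an unadjusted p under 0.05, black bars are list medians and the dashed line is Gal at 0.68. Most partner genes lie between −0.5 and 0.5, and 4 of the 10 hypothalamic genes are red on the lower side.

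Marker genes of tissues other than the amygdala were also checked, among them the hypothalamus, which makes galanin. Of the hypothalamic and preoptic genes 4 of 10 tested were lower in OV+E2 at an unadjusted p under 0.05 and 0 higher, with a median of −0.21. Avp, the vasopressin gene, was at −1.08 (SE 0.24), the oxytocin gene Oxt at −0.82 (SE 0.26), the opiomelanocortin precursor gene Pomc at −0.49 (SE 0.16) and the transcription factor gene Nkx2-1 at −0.27 (SE 0.11), all 4 with an adjusted p over 0.05 unless arrays were weighted, where it ran from 0.0155 (Avp) to 0.0399 (Oxt) in limma. The summed level of that list, relative to the 75th percentile of the array, was 52.2 to 107.6 in OV and 32.0 to 68.9 in OV+E2, and of its 11 members Otp alone was well above background on 0 arrays. Of the anterior pituitary genes Prl, Gh1 and Tshb were well above background on 0 of 9 arrays. Lhb was so on 9, Pou1f1 on 7, Cga on 6 and Fshb on 5. These 4 were tested, with 2 below 0, 2 above 0 and none at an unadjusted p under 0.05. Their median difference was 0.051, with 0.12 within slide 1 and −0.68 within slide 2. The summed level of the list was 0.415 to 1.13 in OV and 0.392 to 2.48 in OV+E2. Choroid plexus genes and thalamic genes were above 0 in 5 of 5 each, with none at an unadjusted p under 0.05. The choroid plexus median was 0.74 (1.06 without OV replicate 3), with 1.33 within slide 1 and 0.12 within slide 2, and the thalamic median was 0.15, with 0.66 and 0.022. The summed choroid plexus level was 13.3 to 753 in OV, or at most 346 without OV replicate 3, and 256 to 482 in OV+E2. The summed level of striatal genes was 39.9 to 68.4 in OV, or at most 53.8 without OV replicate 3, and 29.2 to 58.8 in OV+E2. Of 6 striatal genes 4 were below 0, with none at an unadjusted p under 0.05. Their median was −0.30 (−0.11 without OV replicate 3), with −0.73 within slide 1 and 0.32 within slide 2. Summed levels of thalamic genes were 13.3 to 15.3 in OV and 13.5 to 19.7 in OV+E2. Those of amygdala genes were 182 to 237 and 202 to 229. All these sums are of unlogged levels, so the brightest genes of a list weigh most. The brightest amygdala gene was Cck, with mean log2 levels of 7.07 in OV and 7.04 in OV+E2. For the choroid plexus it was Ttr, at 7.41 and 8.42. Within the amygdala list Slc17a7 was at 0.30 (SE 0.09, adjusted p = 0.326 in limma). The part of these markers in the level of Gal was not tested.

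The genes whose levels over the 9 arrays were most like Gal, of 14988 named genes compared, were Mccc1 (Pearson's r 0.98), Ythdc1 (0.97), Skic3 (0.96), Ddx46 (0.95), Sgce (0.95) and Plagl1 (0.94). Mccc1 encodes a subunit of a mitochondrial carboxylase of leucine breakdown, Ythdc1 a nuclear reader of methylated RNA and Plagl1 an imprinted zinc finger protein. Mccc1 was at 1.97, 2.10, 1.90 and 2.03 in OV replicates 1, 2, 3 and 5 and between 2.17 and 2.22 in OV+E2. As with Gal, OV replicate 2 was the highest control and OV replicate 3 the lowest, but the whole range was much narrower, with a difference of 0.19 (SE 0.080) for Mccc1. The most opposite pattern was that of Rfxank (r −0.99), a subunit of the factor that activates MHC class II genes, followed by Tesmin (−0.95) and the Toll-like receptor gene Tlr2 (−0.94). Rfxank ranged from −0.56 to −0.29 in OV and from −0.73 to −0.60 in OV+E2. Without OV replicate 3 only 2 of the 6 genes most like Gal kept their place among the 6, but Rfxank stayed the most opposite (r −0.99), also after quantile normalization and with the group means taken out (r −0.98). Tesmin was at r −0.71 after quantile normalization, and Tlr2 was at r −0.90 without OV replicate 3 and −0.76 with the group means taken out. With 9 arrays and so many genes, coefficients of this size are a description and carry no test.

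**Figure D4:**
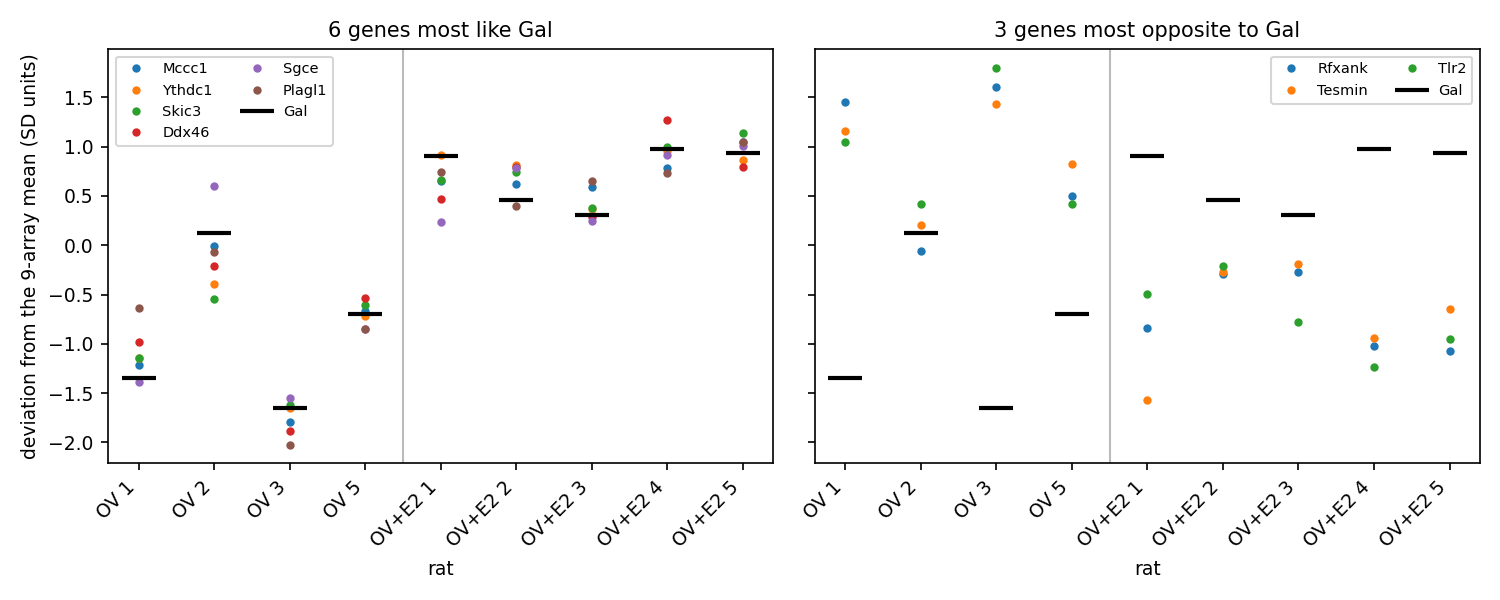
Deviation from the mean of the 9 arrays in SD units (vertical axes) for each rat (horizontal axes), with Gal as a black bar and the 6 most similar genes (left) and 3 most opposite genes (right) as points. The grey line parts OV from OV+E2. The points on the left follow Gal, down to OV replicate 3 as the lowest rat, and the points on the right mirror it.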

How the data were processed

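Amygdala RNA (200 ng a rat) was measured on 1-colour Agilent arrays. The deposited processed signal is an intensity after background subtraction by Feature Extraction 10.7.3.1, per the file headers. The submitters' processing notes name version 9.1. The authors' own intensity table served as an alternative; its scaling is unstated, and its column for OV replicate 3 departed from the scanner file (SD of the log2 ratio 1.00, against at most 0.0306 for the others). Of 62976 spots, 4259 control spots and outlier spots were left out. Replicate spots were averaged, giving 45598 probes. From log2 signals the log2 of each array's 75th percentile was subtracted. Probes detected well above background on 4 or more of the 9 arrays were fitted in limma 3.58.1 (R 4.3.3) with group as the only term and Benjamini-Hochberg adjustment. The method was tested on simulated data. Genes were named by RefSeq accession or symbol (GRCr8 annotation). The brightest probe stood for a gene. Named genes were the 4 members, up to 4 genes of smallest p in each partner list, marker genes under an unadjusted p of 0.05, and the 6 most and 3 least like Gal. Of these, 1 list gene is not reported here. Members and lists were chosen with earlier results of these data known. Separate animals are the replicates, and their number limits the precision. Replicate numbers were not used as pairs. Alternatives covered background correction, scaling, filter, slide, replicate block, array weights, the authors' values, probe means and each array left out.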

Additional observations from a re-analysis of the deposited data

Results flagged for a closer look

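In groups of 4 or 5 rats a single rat stood apart from the others by more than Dixon's critical value in 11 of 88 groups checked, a group being the OV or OV+E2 rats of 1 gene. Chance flags about 1 in 20 groups. Of the galanin genes only Galr1 was among them, with OV replicate 2 at −1.12 and the other controls at −1.38 to −1.36. OV replicate 3 stood apart for 5 genes: low for Prkca (3.51, the others at 3.85 to 3.91), Kiss1r (−2.37, the others at −1.86 to −1.76) and Esr1 (−3.31, the others at −2.50 to −2.42), and high for Greb1 (−1.14, the others at −1.71 to −1.64) and Gper1 (0.55, the others at −0.48 to −0.41). OV+E2 replicate 2 was high for Vip (2.53, the others at 2.08 to 2.21) and for Pgr (−2.03, the others at −3.06 to −2.83), and OV replicate 5 was low for Pgr (−3.31, the others at −2.99 to −2.93). OV+E2 replicate 1 was low for Prkca (3.91, the others at 3.97 to 3.99), and OV+E2 replicate 3 for Ythdc1 (3.22, the others at 3.29 to 3.31).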

How the results depend on the processing

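Over the arrays left out in turn the difference was 0.57 to 0.82 for Gal, −0.19 to −0.07 for Galr1, −0.21 to −0.06 for Galr2 and −0.39 to 0.19 for Galr3. In the same refits limma called 0 to 1 probes at an adjusted p under 0.05 and 2024 to 5330 at an unadjusted one, and 6 to 18 list genes passed the latter. With the replicate block Gal was at 0.65 and 1967 probes passed the unadjusted threshold. Deviations of same-numbered rats correlated at 0.170, −0.076, −0.011 and 0.105, and those of differently numbered rats at −0.290 to 0.122. Whether the numbers pair the rats cannot be told from these few overlapping values. Array weights took Gal to 0.39, gave 3499 probes at the adjusted threshold, 9511 at the unadjusted one and 38 list genes, took 12 named list genes past the adjusted threshold, and turned Gper1 to 0.064. The authors' values gave 69 and 5655 probes, with Gper1 at 0.059, and without the filter on dim probes 9 probes passed adjustment and 9 list genes the unadjusted threshold. Within slide 2, where the single control is assumed to vary like the treated rats, Galr3 was at 0.40. Of the 6 genes most like Gal, 2 were shared without OV replicate 3, 3 after quantile normalization and 2 with group means taken out. Normexp turned Spx (−0.14) and Pgr (−0.091), quantile normalization and median scaling Esr1 (0.047 and 0.037). With arrays left out in turn Esr1 ran from −0.28 to 0.014, positive without OV replicate 1 (0.0071) or OV replicate 5, and Gper1 from −0.30 to 0.040, positive without OV replicate 3. Esr1 was further below 0 in the authors' values (−0.29, SE 0.079), under normexp (−0.34, SE 0.14) and with array weights (−0.21, SE 0.086). Means over all probes turned Plcb4 (−0.023), Cadps (−0.27), Pcsk1 (−0.40), Socs3 (−0.30) and Kcnj9 (−0.048). Within-slide fits, and fits that left out OV replicate 3 in the authors' values or under the slide block, were added after the data were seen. The median difference over all probes was 0.11 under median scaling, −0.11 under normexp and −0.13 with no filter, against 0.0011 in the fit of the report. The dim receptor probes limit what a difference of their size can show.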
